A study of Mus musculus with 4 samples.

Results

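Heart muscle is switched on and off at the sarcomere by a small set of proteins, and the mRNAs of 10 of them were followed in spatial transcriptomic sections of infarcted mouse hearts. The members were chosen by gene symbol. They are the ventricular myosin light chains Myl2 and Myl3, the light chain kinases Mylk3 and Mylk4, the cardiac troponin subunits Tnnc1, Tnni3 and Tnnt2, the tropomyosin Tpm1, the cardiac myosin-binding protein Mybpc3 and the giant filament protein Ttn. They were 10 of the 32285 genes in the files, and all 10 were among the 4769 genes with at least 1000 UMIs, the minimum used for testing. A UMI (unique molecular identifier) marks a single captured mRNA molecule.

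The study ligated the left anterior descending (LAD) coronary artery permanently in adult ICR mice, 12 weeks old per the design text, to cause a myocardial infarction (MI). All mice received isoflurane anesthesia and buprenorphine, and no sham-operated or uninjured section was analysed here. The 4 groups were days 1, 4, 7 and 14 after ligation, with 1 frozen section from 1 mouse in each, so days were not tested against each other and the variation from mouse to mouse is not known. Visium captures mRNA on a slide of barcoded spots, each of which lies under a small group of cells of several types.

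In the resting sarcomere, tropomyosin lies along the thin filament and blocks the sites where myosin can bind. Calcium that binds troponin C (Tnnc1) lifts the inhibition by troponin I (Tnni3), and troponin T (Tnnt2) holds the complex on tropomyosin, which then moves aside. The light chains stiffen the lever arm of myosin, and phosphorylation of the regulatory light chain Myl2 makes the heads readier to bind. Mylk3 encodes the cardiac kinase known for that phosphorylation. Mybpc3 holds myosin heads back and is released by phosphorylation, while titin (Ttn) acts as the molecular spring of the sarcomere.

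The sequences before the transcription starts of 4 members are shown because these genes span the range of changes described further on, from the member that fell most (Mylk4) to the one that fell least (Mybpc3), with Ttn and Tnnt2 between them. Each is the 250 bases before the start in RefSeq on GRCm38.p6, 5′ to 3′ on the strand of the gene. Mylk4 is from chr13:32783965-32784214 (minus strand), Mybpc3 from chr2:91117894-91118143 (plus), Ttn from chr2:76982548-76982797 (minus) and Tnnt2 from chr1:135836084-135836333 (plus). Capitals mark a match to the MEF2 box in the first 3 sequences, and in Tnnt2 they mark AGATAA on the other strand and CATTCC.
Mylk4: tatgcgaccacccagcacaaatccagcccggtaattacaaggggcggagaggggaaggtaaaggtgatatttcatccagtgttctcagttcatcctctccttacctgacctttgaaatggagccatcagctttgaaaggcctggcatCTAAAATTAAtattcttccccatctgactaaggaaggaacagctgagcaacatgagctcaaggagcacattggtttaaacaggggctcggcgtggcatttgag
Mybpc3: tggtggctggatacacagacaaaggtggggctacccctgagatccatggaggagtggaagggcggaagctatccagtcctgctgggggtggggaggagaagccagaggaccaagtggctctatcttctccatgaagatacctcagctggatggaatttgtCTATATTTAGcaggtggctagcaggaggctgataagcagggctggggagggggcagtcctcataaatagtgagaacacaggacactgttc
Ttn: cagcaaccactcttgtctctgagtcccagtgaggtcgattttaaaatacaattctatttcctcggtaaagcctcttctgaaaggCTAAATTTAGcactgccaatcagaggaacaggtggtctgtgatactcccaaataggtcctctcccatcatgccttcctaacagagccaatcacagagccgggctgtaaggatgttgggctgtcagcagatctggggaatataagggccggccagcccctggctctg
Tnnt2: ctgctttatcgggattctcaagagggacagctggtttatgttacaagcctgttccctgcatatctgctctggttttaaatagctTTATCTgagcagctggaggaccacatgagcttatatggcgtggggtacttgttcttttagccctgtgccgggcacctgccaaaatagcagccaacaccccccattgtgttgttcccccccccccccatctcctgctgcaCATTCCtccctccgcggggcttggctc
The MEF2 box, the binding motif of a family of muscle transcription factors, occurred in 3 of the 10 members and in 2.92% of 32851 RefSeq promoters. It began 103 bases before the start in Mylk4, 90 in Mybpc3 and 166 in Ttn. CATTCC, the core motif of TEAD factors, was found in 5 members (Myl3, Mylk3, Tnnc1, Tnnt2 and Tpm1) and in 12.6% of all promoters. AGATAA, bound by factors of the GATA family, was found in 3 members (Myl2, Mylk3 and Tnnt2) and in 9.99% of all promoters. TATAAA was found in 1 member (Myl2) against 12.4%, and the CArG box in 1 (Myl3) against 1.47%. Both strands were searched, overlapping matches were counted, the motifs differ in length, and Myl2, Tnnt2 and Mylk3 have more than 1 promoter entry. Members were counted by gene and the background by promoter entry, so a gene with more than 1 entry had more chances of a match. Both Myl2 entries (chr5:122092474-122092723 and chr5:122092939-122093188) lie upstream of the gene as placed further on, which starts at 122100951. The bases just before that start were not among them. The Myl3 entry (chr9:110763428-110763677), the Tnni3 entry, the Mylk3 entries and the second Tnnt2 entry lie inside the spans of those genes as placed further on. The Tpm1 entry (chr9:67049214-67049463) lies partly inside the span of Tpm1, and its CATTCC, 56 bases before the start, falls in that part. A match describes letters only, and the genes with a MEF2 box included the member that fell most and the one that fell least.

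The deposited sections held 2151, 2026, 2184 and 2741 spots on days 1, 4, 7 and 14. Spots with more than 1% of UMIs in hemoglobin genes were removed, which left 1890, 1679, 1848 and 2086 spots with 9292678 to 15713779 UMIs per section and a median of 5188 to 8799 UMIs per spot. The sections share 1332 barcodes because the same barcodes are printed on each slide area, and cells are not shared by that. The label of heart tissue was borne out by the 16 cardiomyocyte reference genes (among them Myh6, Actc1, Ryr2 and Mb), which held 5.09 to 7.00% of UMIs per section, while the atrial gene Myl7 had 17 UMIs in all 4 sections together. The 10 members together held 4.14, 3.35, 3.92 and 4.27% of UMIs on days 1, 4, 7 and 14.

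Within each section, spots were ranked by the share of their UMIs in the collagen genes Col1a1, Col1a2 and Col3a1 and divided into 4 equal rank groups. Rank group 1 is called the collagen-poorest spots and rank group 4 the collagen-richest. Levels are given as CPM, the UMIs of a gene per 1000000 UMIs of the same spots. The collagen-richest spots began at a collagen share of 0.133, 1.68, 1.25 and 0.106% in the 4 sections by day, so that they are not the same tissue on each day. The reference genes held 7.35, 6.55, 7.09 and 7.22% of UMIs in the collagen-poorest spots on days 1, 4, 7 and 14, and 4.64, 1.24, 1.77 and 5.48% in the collagen-richest. The 8 fibroblast markers (Dcn, Postn and others) summed to 1443, 1641, 1741 and 1058 CPM in the collagen-poorest and to 4247, 24738, 30417 and 10617 CPM in the collagen-richest spots. The 8 macrophage markers had 225 to 399 CPM in the collagen-poorest and 1011 to 6754 in the collagen-richest spots, and the 6 smooth muscle markers had 89.3 to 160 and 318 to 1820. Median depth per spot in the collagen-richest group was 5700.5, 6072, 2758.5 and 2171 UMIs on days 1, 4, 7 and 14. In spots that mix cells, fewer cardiomyocytes and less of an mRNA per cardiomyocyte cannot be told apart from a share of all UMIs.

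All 10 members were lower in the collagen-richest than in the collagen-poorest spots, by log2 changes between -0.92 for Mybpc3 and -2.85 for Mylk4. The test was edgeR's quasi-likelihood test with TMM normalization on UMIs summed per section and rank group (16 libraries), with the section as a block and Benjamini-Hochberg adjustment over 4766 genes. Of all genes tested, 34.5% were called lower at an adjusted p under 0.05, so a lower value alone is common in this comparison. The median change was -1.51 over the 10 members and 0.03 over all genes. In rank group 3 against rank group 1, 0 of 10 members were called lower by edgeR, where 1.49% of all genes were, and 1 member (Mylk4) had an unadjusted p under 0.05. DESeq2 called 1 member in that comparison and found 2 at an unadjusted p under 0.05. Of all 4766 genes, in either direction, 1575 had an unadjusted p under 0.05 with edgeR and 1728 with DESeq2. DESeq2 called 912 of them after adjustment, so these counts of members do not stand out. In rank group 2 against rank group 1, edgeR and DESeq2 called 0 members and no member had an unadjusted p under 0.05, with 0% of all genes called lower. Scaled to total UMIs in place of TMM, 8 of 10 members were called lower, Mybpc3 (-0.37, adjusted p = 0.0926) and Tpm1 (-0.49, adjusted p = 0.0781) no longer being called, and the median of all genes moved to 0.59, so that these values lay below that median as well. Under that scaling 808 genes were called lower and 2976 higher, against 1643 and 1722 with TMM.

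**Figure D1:**
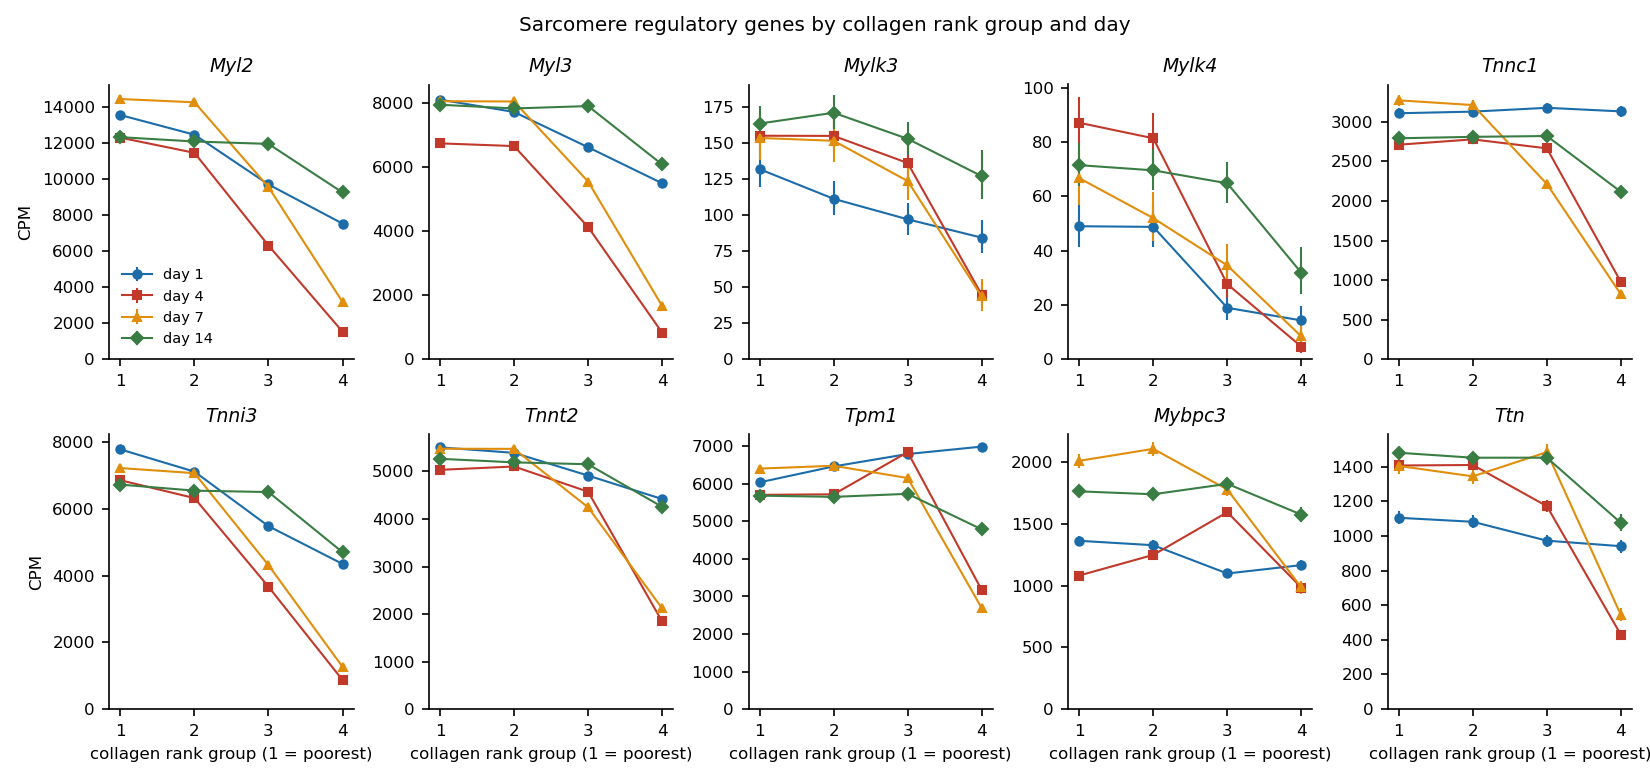
CPM (vertical axis, from 0) of the 10 members in the 4 rank groups of spots by collagen share (horizontal axis, 1 is the collagen-poorest), with 1 line per day and exact Poisson 95% intervals as bars. For Myl2 the values in rank group 4 are lowest on day 4 (squares, 1530) and day 7 (triangles, 3182), Mybpc3 differs little between rank groups 1 and 4 on day 4 (1081 and 984), and Tpm1 on day 1 (circles) goes up from 6034 to 6985.

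Both light chains were lower in the collagen-richest spots. Myl2 (chr5:122100951-122113472, plus strand, GRCm38), the regulatory light chain of ventricular myosin, had 13547, 12293, 14438 and 12320 CPM in the collagen-poorest spots on days 1, 4, 7 and 14. In the collagen-richest spots it had 7527, 1530, 3182 and 9253. Every collagen-richest value lay under every collagen-poorest value, and days 4 and 7 were lowest. The share of all genes that separate in this way was not counted, so here and below the separation only describes each member. The log2 change was -2.01 ± 0.44 (SE, adjusted p = 0.00128). Myl3 (chr9:110741861-110769798, plus), the essential light chain, had 8099, 6734, 8050 and 7940 CPM in the collagen-poorest spots and 5489, 831, 1663 and 6076 in the collagen-richest. These values did not overlap either, and the log2 change was -1.91 ± 0.46 (SE, adjusted p = 0.00253). The number of Myl2 UMIs per Myl3 UMI stayed between 1.37 and 1.91 in all 16 libraries. It was lowest on day 1, where it went from 1.67 in the collagen-poorest spots to 1.37 in the collagen-richest, and on day 4 it was 1.83 and 1.84.

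The kinases differed in level and in how far they fell. Mylk4 (chr13:32700834-32783954, minus), another kinase of the light chain kinase family, had 48.9, 87.0, 66.6 and 71.4 CPM in the collagen-poorest spots on days 1, 4, 7 and 14. In the collagen-richest spots it had 14.3, 4.66, 8.41 and 31.8, which rested on 37, 12, 12 and 56 UMIs. The rank groups did not overlap, and the log2 change of -2.85 ± 0.43 (SE, adjusted p = 0.000138) was the largest among the members. On day 4 the ratio of the collagen-richest to the collagen-poorest spots was 0.0535 (exact 95% interval 0.0274 to 0.0946), which covers counting error only, as do all intervals for a single day. Mylk4 was already at 18.9 and 27.6 CPM in rank group 3 on days 1 and 4. The change in that group was -1.23 ± 0.37 (SE, adjusted p = 0.0532), short of the threshold. Mylk3 (chr8:85324303-85386345, minus), the cardiac light chain kinase, had 132, 155, 153 and 163 CPM in the collagen-poorest spots and 84.2, 44.6, 43.5 and 127 in the collagen-richest. Again no value of the collagen-richest spots reached one of the collagen-poorest, and the log2 change was -1.60 ± 0.28 (SE, adjusted p = 0.000344). The nearest values of Mylk3, 127 on day 14 and 132 on day 1, have overlapping counting intervals. For every Mylk3 UMI there were 0.372, 0.562, 0.435 and 0.438 Mylk4 UMIs in the collagen-poorest spots and 0.170, 0.104, 0.194 and 0.251 in the collagen-richest. This ratio was lower in the collagen-richest spots of all 4 sections.

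The troponin subunits, which form a complex with a single copy of each, did not fall alike. Tnni3 (chr7:4518305-4524229, minus), the inhibitory subunit, had 7790, 6865, 7231 and 6735 CPM in the collagen-poorest spots and 4355, 872, 1268 and 4707 in the collagen-richest, without overlap. Its log2 change was -2.11 ± 0.44 (SE, adjusted p = 0.000984). Tnnt2 (chr1:135836354-135852260, plus), the subunit that binds tropomyosin, had 5507, 5034, 5478 and 5266 in the collagen-poorest spots and 4420, 1844, 2119 and 4256 in the collagen-richest, also without overlap. Its log2 change was -1.36 ± 0.28 (SE, adjusted p = 0.00097). Tnnc1 (chr14:31208312-31211729, plus), the calcium sensor, had 3109, 2711, 3272 and 2793 CPM in the collagen-poorest spots. In the collagen-richest spots it had 3132, 977, 820 and 2116, so that the ranges overlapped, with the day 1 ratio at 1.01 (exact 95% interval 0.978 to 1.04). The fitted log2 change was -1.42 ± 0.35 (SE, adjusted p = 0.00271). Within the complex, the number of Tnnt2 UMIs per Tnni3 UMI was 0.707, 0.733, 0.758 and 0.782 in the collagen-poorest spots and 1.01, 2.11, 1.67 and 0.904 in the collagen-richest. For Tnnc1 per Tnni3 the ratios were 0.399, 0.395, 0.453 and 0.415 against 0.719, 1.12, 0.647 and 0.450. Both ratios were higher in the collagen-richest spots in 4 of 4 sections, least on day 14.

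Tpm1 and Mybpc3 fell least, and their profiles had a different shape. Tpm1 (chr9:67022590-67049406, minus), alpha-tropomyosin, had 6034, 5701, 6400 and 5680 CPM in the collagen-poorest spots on days 1, 4, 7 and 14. In the collagen-richest spots it had 6985, 3169, 2686 and 4783. Day 1 was the exception among the sections, being higher by a ratio of 1.16 (exact 95% interval 1.13 to 1.18), and on day 4 rank group 3 with 6838 was above group 1. The fitted log2 change was -1.03 ± 0.28 (SE, adjusted p = 0.00557). Without the day 4 section it was -0.76 (adjusted p = 0.0564), and without the day 7 section -0.74 (adjusted p = 0.0627), so that the call for Tpm1 needs each of those sections. The TMM factors were 1.12 to 1.41 in the collagen-richest and 0.800 to 0.934 in the collagen-poorest groups, which is why the fit gives lower values than the plain ratios, day 1 included. Tpm1 is also made by smooth muscle and connective tissue cells, whose markers were higher toward the collagen-rich end as given above, and their part in its level was not tested. Mybpc3 (chr2:91118144-91136516, plus) had 1362, 1081, 2009 and 1762 CPM in the collagen-poorest spots and 1165, 984, 985 and 1574 in the collagen-richest. These values overlapped between days. On day 4 its level was highest in rank group 3, with 1593 CPM or a ratio of 1.47 to group 1, while Myl2 in the same spots was at 0.513. The log2 change of Mybpc3 was -0.92 ± 0.21 (SE, adjusted p = 0.00176).

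Ttn (chr2:76703980-76982547, minus) had 1105, 1407, 1404 and 1480 CPM in the collagen-poorest spots and 941, 429, 543 and 1075 in the collagen-richest. No collagen-richest value reached a collagen-poorest one, and the log2 change was -1.42 ± 0.30 (SE, adjusted p = 0.000978). The nearest values, 1075 on day 14 and 1105 on day 1, have overlapping counting intervals. Rank group 3 on day 7 stood at 1484 CPM, the highest of that section. That group held 76 of 119 spots in which fast skeletal muscle genes (Myh4, Tnnc2 and others) had 10 UMIs or more. Without those spots Ttn was at 1176 there. The 119 spots had 2917 Ttn CPM, against 1187 in the other spots of day 7, and 5930 for Tpm1 against 5769. Mylk4 had 69.4 CPM in them against 42.7, while Myl2 (1118 against 11790) and Tnni3 (286 against 5705) were far lower. Another 43 of the 119 spots were in the collagen-richest group, where 8 of 12 Mylk4 UMIs were left without them. Leaving the spots out before ranking changed none of the counts of members called.

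To separate the members from the general loss of cardiomyocyte mRNA, UMIs were also scaled to the summed UMIs of the 16 reference genes, none of which is a member. On this scale, 5 members were above the reference in the collagen-richest spots and 3 below it. Mybpc3 was higher by a log2 change of 1.01 ± 0.27 (SE, adjusted p = 0.00302), Tpm1 by 0.85 ± 0.18 (adjusted p = 0.000504), Tnnt2 by 0.52 ± 0.13 (adjusted p = 0.00205), Ttn by 0.43 ± 0.17 (adjusted p = 0.0256) and Tnnc1 by 0.41 ± 0.16 (adjusted p = 0.0282). Mylk4 was lower, at -1.16 ± 0.30 (SE, adjusted p = 0.00203), as were Tnni3 at -0.34 ± 0.10 (adjusted p = 0.00457) and Myl2 at -0.24 ± 0.09 (adjusted p = 0.0203). Myl3 (-0.18 ± 0.11, adjusted p = 0.129) and Mylk3 (0.21 ± 0.23, adjusted p = 0.38) were not called. Of all genes tested, 90.5% were called higher on this scale and 0.567% lower, with a median change of 2.07. Dividing by cardiomyocyte UMIs sets this background, so it cannot show whether 5 of 10 higher or 3 of 10 lower is unusual for cardiomyocyte genes. Of the 16 reference genes themselves, 2 were called higher and 4 lower. With so many genes called, the adjustment changes p little. The sum of the reference is not a fixed quantity, since Actc1 (0.74 ± 0.16, adjusted p = 0.000653) and Actn2 (0.71 ± 0.18, adjusted p = 0.00164) were themselves above it and 4 of its genes, with Myh6 at -0.38 ± 0.10 (adjusted p = 0.00276) furthest, were below.

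**Figure D2:**
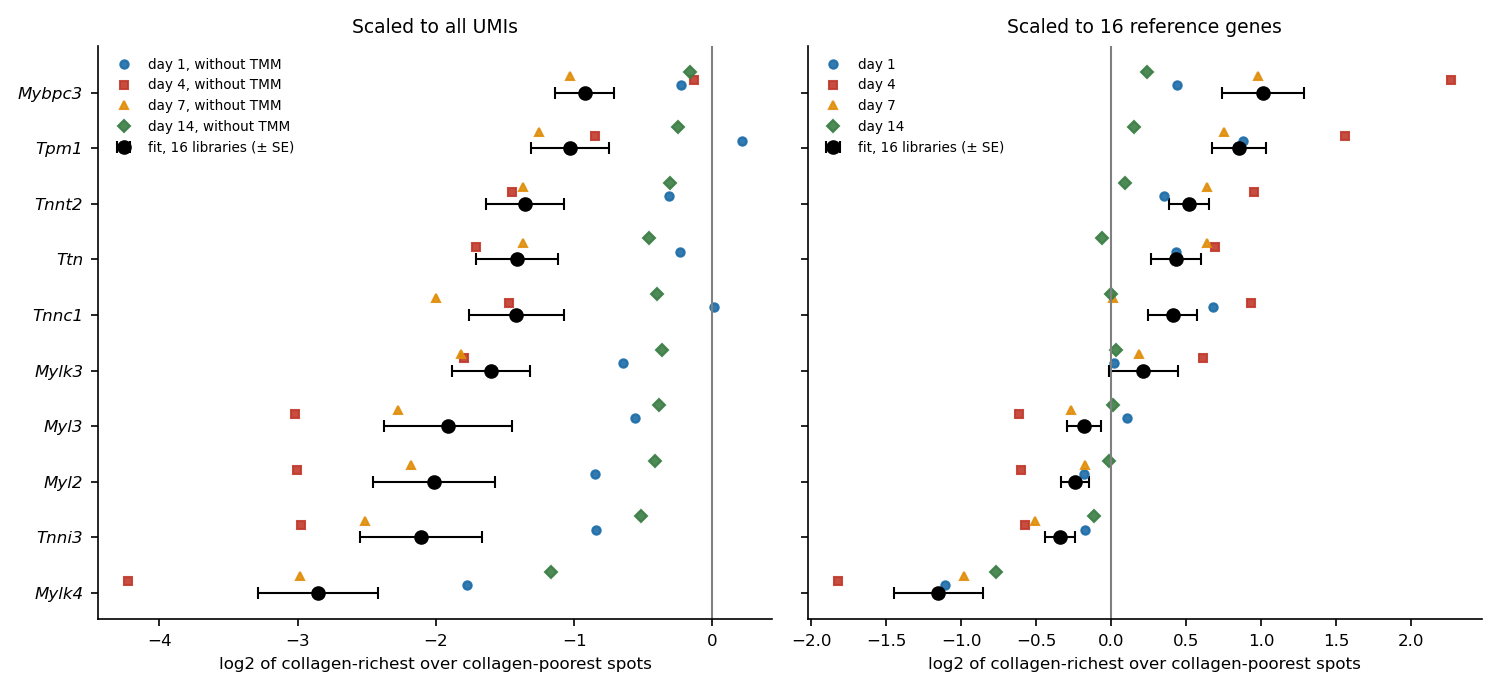
Log2 of the collagen-richest over the collagen-poorest spots for each member, scaled to all UMIs (left) and to the 16 reference genes (right), ordered by the value on the right. Black points are the edgeR estimates ± SE over 16 libraries, colored symbols are the plain ratios of the single sections without TMM, and the grey line marks no difference. All black points on the left lie below 0, from -0.92 to -2.85, and those on the right run from -1.16 for Mylk4 to 1.01 for Mybpc3.

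Per 1000 reference UMIs, Mybpc3 had 18.5, 16.5, 28.3 and 24.4 UMIs in the collagen-poorest spots on days 1, 4, 7 and 14 and 25.1, 79.3, 55.7 and 28.7 in the collagen-richest. It was higher in all 4 sections, most on day 4. Tpm1 had 82.0, 87.0, 90.2 and 78.7 against 151, 256, 152 and 87.3, with only day 14 of the collagen-richest spots inside the range of the collagen-poorest. Tnnt2 had 74.9, 76.8, 77.2 and 73.0 against 95.3, 149, 120 and 77.7, every collagen-richest value being above every collagen-poorest one. The nearest of these, 77.7 on day 14 and 77.2 on day 7, have overlapping counting intervals. Myl2 and Tnni3 went the other way. Myl2 had 184, 188, 204 and 171 per 1000 reference UMIs against 162, 123, 180 and 169, and Tnni3 had 106, 105, 102 and 93.3 against 93.9, 70.3, 71.7 and 86.0. For both genes the ranges overlapped between days, and the Myl2 ratio on day 14 was 0.990 (exact 95% interval 0.972 to 1.01). Mylk4 had 0.666, 1.33, 0.940 and 0.990 against 0.308, 0.376, 0.476 and 0.581, without overlap of the values. The counting intervals of the nearest, 0.581 on day 14 and 0.666 on day 1, do overlap. The Ttn ratio of collagen-richest to collagen-poorest spots on this scale was 1.35, 1.61 and 1.55 on days 1, 4 and 7 and 0.957 (exact 95% interval 0.909 to 1.01) on day 14. Without the skeletal muscle spots of day 7, Ttn in the collagen-richest spots went from 30.7 to 28.2 per 1000 reference UMIs, against 19.8 in the collagen-poorest. The Tnnc1 ratio was 1.60 and 1.90 on days 1 and 4, but 1.01 (0.945 to 1.07) on day 7 and 0.998 (0.962 to 1.04) on day 14.

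The calls on this scale were not equally firm. Mybpc3, Tpm1 and Tnnt2 were called above the reference under every alternative tried. Ttn and Tnnc1 were not called when the day 1 or the day 4 section was left out, which left 3 members above the reference, and Ttn was not called without day 7 either. Myl2 was not called without day 1, day 4 or day 7 (adjusted p = 0.0664, 0.085 and 0.0572). Among the members below the reference, Mylk4 and Tnni3 were called with each section left out. They were not called under every alternative. With the top and bottom 10 percent of spots, 0 members were called below the reference. With genes of at least 10 UMIs, or with the energy genes of the reference alone, 1 was.

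A finer division into 10 equal rank steps showed where along the ranking the members parted. On day 4, Mybpc3 per 1000 reference UMIs was 16.9 in step 1 and 20.2 in step 5, and then went through 24.7, 40.3, 64.6 and 83.4 to 96.2 in step 10. Tpm1 was between 83.7 and 94.5 in steps 1 to 5 and then went from 122 to 302. From step 1 to step 10, Myl2 went from 191 to 128 and Myl3 from 102 to 57.9, while Tnnt2 went from 79.0 to 167. The reference share of UMIs was 6.58% in step 1 and 0.608% in step 10 of that section. Tnnc1 reached 80.7 in step 8 and was at 70.4 in step 10. On day 7, Mybpc3 was between 27.9 and 29.6 in steps 1 to 5, reached 63.4 in step 9 and was at 49.7 in step 10. The day 14 section was nearly flat over steps 1 to 8, with Tpm1 between 77.3 and 83.3, Mybpc3 between 23.8 and 26.2 and Tnnt2 between 71.5 and 74.0. In step 10, where the reference share was 1.01% against 7.22% in step 1, Tpm1 stood at 107, Tnnt2 at 98.5 and Mybpc3 at 30.3.

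**Figure D3:**
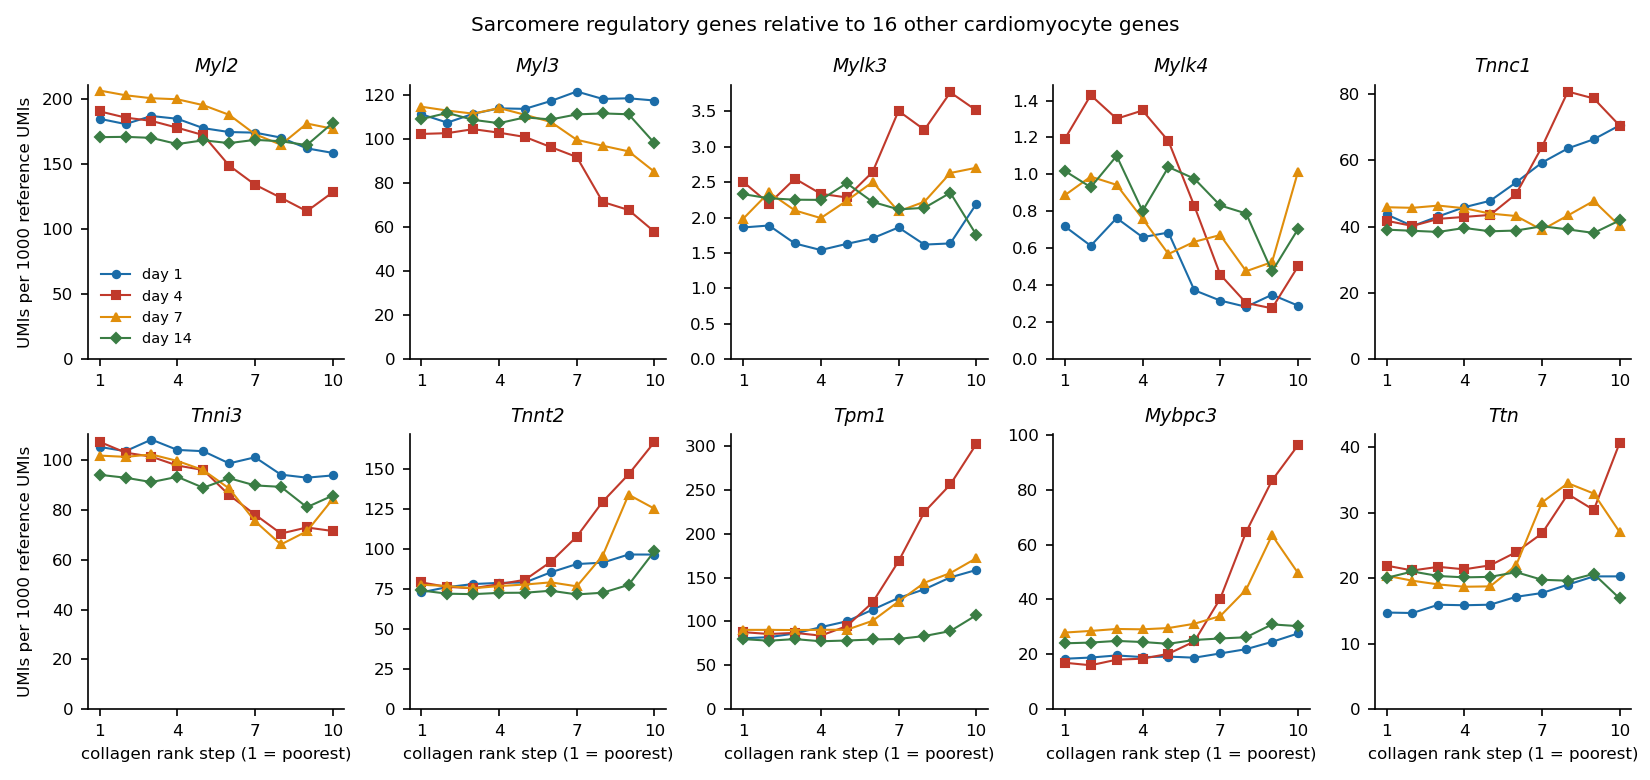
UMIs of each member per 1000 UMIs of the 16 reference genes (vertical axis, from 0) over 10 equal groups of spots ranked by collagen share (horizontal axis, 1 is the collagen-poorest), with 1 line per day. On day 4 Mybpc3 goes from 16.9 to 96.2 and Tpm1 from 87.7 to 302, while Myl2 goes from 191 to 128.

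Ratios between members do not depend on the reference or on the total. They can depend on the mix of cells where a member is also made outside cardiomyocytes, as Tpm1 is. The part of other cells in the Tpm1 ratios, and in Tpm1 per reference UMI, was not tested. For every Myl2 UMI there were 0.445, 0.464, 0.443 and 0.461 Tpm1 UMIs in the collagen-poorest spots on days 1, 4, 7 and 14, a narrow range over 4 mice. In the collagen-richest spots there were 0.928, 2.07, 0.844 and 0.517. Mybpc3 per Myl2 was 0.101, 0.0879, 0.139 and 0.143 in the collagen-poorest spots, and 0.155, 0.643, 0.309 and 0.170 in the collagen-richest. Both ratios were higher in the collagen-richest spots of every section, with day 4 furthest and day 14 least. Because a UMI counts captured molecules and genes differ in capture, the ratios are read as changes between rank groups and not as the stoichiometry of the proteins.

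**Figure D4:**
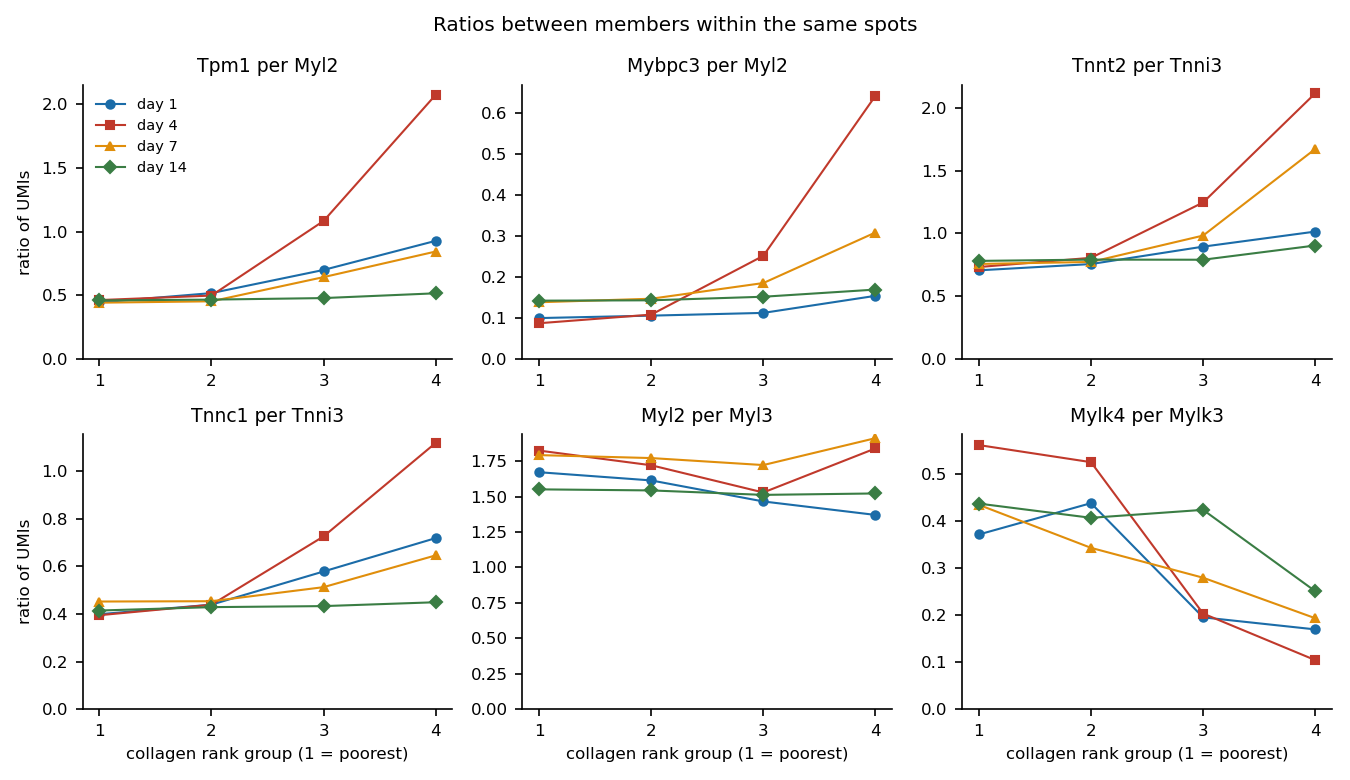
Ratios of the UMIs of paired members in the same spots (vertical axes, from 0) by collagen rank group (horizontal axis, 1 is the collagen-poorest), with 1 line per day. Tpm1 per Myl2 starts between 0.443 and 0.464 on all days and reaches 2.07 on day 4, Myl2 per Myl3 stays between 1.37 and 1.91, and Mylk4 per Mylk3 goes down in every section.

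Across days, the collagen-poorest spots were alike for most members. The highest day exceeded the lowest by 1.09-fold for Tnnt2 (5034 to 5507 CPM), by 1.13-fold for Tpm1, by 1.16-fold for Tnni3, by 1.17-fold for Myl2, by 1.20-fold for Myl3, by 1.21-fold for Tnnc1 and by 1.24-fold for Mylk3. Mybpc3 and Mylk4 varied most, by 1.86-fold and 1.78-fold, followed by Ttn with 1.34-fold. Day 4 had the lowest Mybpc3 and the highest Mylk4, while day 1 had the lowest Ttn, Mylk3 and Mylk4. The order of Ttn was day 1 (1105), day 7 (1404), day 4 (1407) and day 14 (1480), of which days 7 and 4 cannot be told apart by counting error. In the collagen-richest spots the highest day exceeded the lowest by 1.60-fold for Mybpc3 and by 7.31-fold for Myl3. With 1 mouse per day, a difference between days may be a difference between mice or sections.

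Single spots of the collagen-richest group varied widely. On day 4 the interquartile range of their 419 spots was 883 to 4668 CPM for Tpm1, with a median of 1856, and from 410 to 2231 for Myl2, with a median of 928. In the collagen-poorest spots of that section it was 4956 to 6399 for Tpm1 and 10968 to 13758 for Myl2. Among the 16 libraries, after subtraction of each section's mean, log2 levels of Myl2 and Tnni3 correlated most closely of all pairs of members (Pearson r = 0.997), and Mybpc3 and Mylk4 least (r = 0.635). These correlations share depth and the ranking, and are given as a description over 16 libraries.

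The genes most like each member over the same 16 libraries fell into a few kinds. Myl2 was closest to Yipf7 (r = 0.998) and Ndufv1 (0.997), Myl3 to Cox8b (0.998) and Cox6a2 (0.998), and Tnni3 to Cyc1 and Mdh1 (both 0.999). Tnnt2 was closest to mt-Cytb (0.995) and Ndufa11 (0.995), Mylk3 to Ndufb10 and Uqcrh (both 0.995), and Ttn to Coq8a and Macrod1 (both 0.993). Most of these encode mitochondrial proteins, but the share of such genes among all genes compared was not counted. Mylk4 was closest to Mmut (0.993) and Aldh6a1 (0.992), enzymes of branched-chain amino acid breakdown. The nearest genes of Tnnc1 were Lmod2 (0.990) and Actc1 (0.989), the leiomodin and the actin of the cardiac thin filament, and those of Tpm1 were Rangrf (0.982) and Actc1 (0.981). Mybpc3 was closest to Slc8a1 (0.974), the sodium-calcium exchanger, and Gapdh (0.941), the lowest values among the members.

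Other genes of the sarcomere were compared with the members by lists, whose counts are given beside the backgrounds of 34.5% of all genes called lower and 36.1% called higher. Of 20 other sarcomere genes, all of them tested, 17 were lower and 3 higher in the collagen-richest spots, with a median of -1.30. The furthest down were Myh6 (-2.14 ± 0.45, adjusted p = 0.000964), the alpha-myosin heavy chain, Fhl2 (-1.98 ± 0.31, adjusted p = 0.000166) and Tcap (-1.98 ± 0.37, adjusted p = 0.000464), which caps titin at the Z-disc. The 3 higher genes were Acta1 (1.95 ± 0.51, adjusted p = 0.00433), the skeletal actin that injured heart muscle re-expresses, Myh7 (0.85 ± 0.36, adjusted p = 0.0482), the beta-myosin heavy chain, and Synpo2l (0.59 ± 0.22, adjusted p = 0.0278). Acta1 had 445, 107, 212 and 479 CPM in the collagen-poorest spots on days 1, 4, 7 and 14 and 3690, 1050, 1267 and 1216 in the collagen-richest. On the reference scale 12 of the 20 were higher, beside 90.5% of all genes, and 1 (Myh6) was lower. Dividing by cardiomyocyte UMIs sets that background, so no result is read from the difference in share. Myh6, Actc1, Actn2, Ldb3, Tcap and Myoz2 are also reference genes, so they were set against a sum that holds them.

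The list of 18 other isoforms of the regulatory proteins held 13 genes with enough UMIs, of which 8 were higher, 1 (Myl12a, -0.44 ± 0.17, adjusted p = 0.0371) lower and 4 not called. In plain CPM, Myl12a was lower in the collagen-richest spots only on day 7 (828 to 623). It was higher on days 1 (558 to 829), 4 (749 to 816) and 14 (682 to 777), so its call as lower depends on the TMM factors. Tpm3 (2.10 ± 0.27, adjusted p = 5.46e-05), a tropomyosin of many cell types, went from 34.1, 18.3, 30.3 and 19.5 CPM in the collagen-poorest spots to 129, 257, 189 and 83.6 in the collagen-richest. In plain CPM Tpm1 went the opposite way on days 4, 7 and 14, but was also higher on day 1. Tnnc2 (4.11 ± 0.71, adjusted p = 0.000314) and Tnnt3 (3.49 ± 1.06, adjusted p = 0.0101), the fast skeletal troponins, came from day 7, where they had 295 and 364 CPM in the collagen-richest spots, and at most 2.84 there on the other days. With the skeletal muscle spots left out, 7 isoforms had at least 1000 UMIs, of which 5 were higher and 1 lower, and Tnnc2, Tnnt3 and Mybpc2 were among those no longer tested. On the reference scale, where 90.5% of all genes were called higher, all 13 were. Of 8 enzymes acting on the regulatory proteins, 4 had enough UMIs and 4 were lower, with a median of -0.78, while on the reference scale all 4 were higher, with a median of 1.18. They included Ppp1r12b (-1.16 ± 0.20, adjusted p = 0.000281), a regulatory subunit of the phosphatase of myosin light chains, Prkaca (-0.96 ± 0.16, adjusted p = 0.000248), the catalytic subunit of protein kinase A, and Camk2d (-0.60 ± 0.15, adjusted p = 0.00316), the cardiac calcium/calmodulin kinase. In plain CPM, Camk2d was higher in the collagen-richest spots on days 1 (78.4 to 81.1) and 14 (68.4 to 91.0). So was Ppp1cb (183 to 201 and 158 to 166), while both were lower on days 4 and 7. Mylk had the most UMIs (905) of the enzymes with too few to test. It had 8.60, 10.2, 14.4 and 10.5 CPM in the collagen-poorest spots by day and 22.8, 50.5, 52.6 and 26.7 in the collagen-richest. The 16 reference genes were all lower, with a median of -1.88, and were led by Myh6, Fabp3 (-2.13 ± 0.42, adjusted p = 0.000686) and Cox7a1 (-2.09 ± 0.46, adjusted p = 0.00131).

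**Figure D5:**
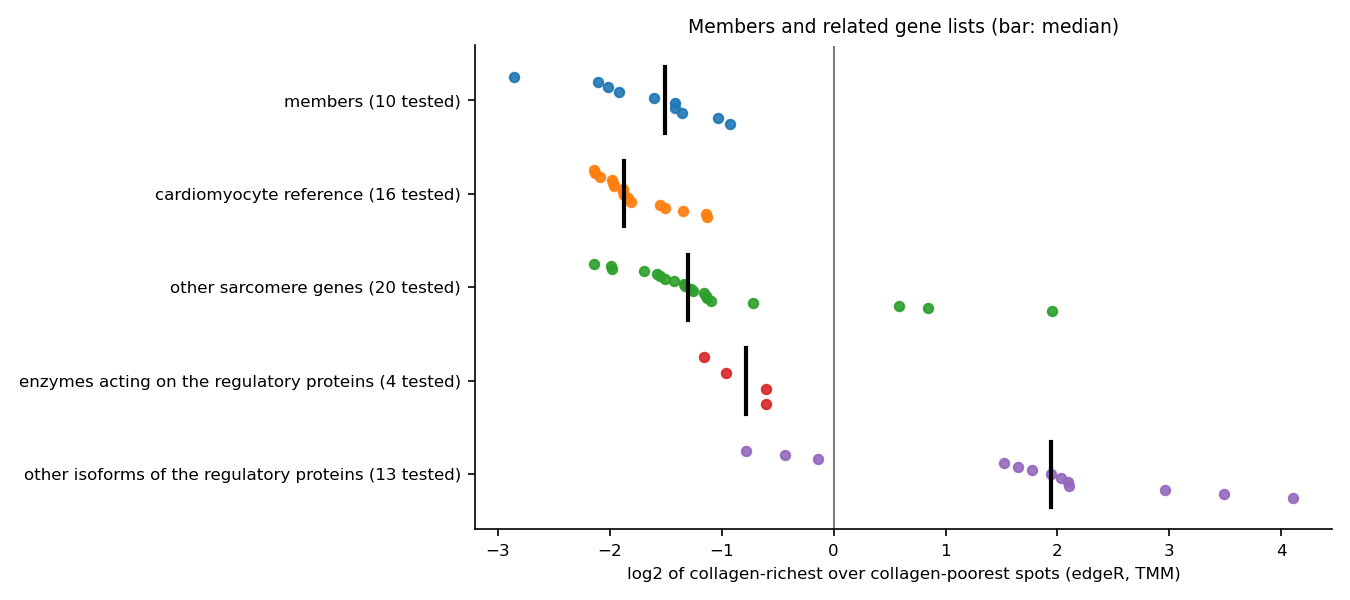
Log2 change from the collagen-poorest to the collagen-richest spots (horizontal axis, edgeR with TMM) of each tested gene in the members and 4 related lists, with a black bar at the median and a grey line at no change. The median of the 10 members (-1.51) lies between those of the cardiomyocyte reference (-1.88) and the other sarcomere genes (-1.30), while single members lie on both sides of that range, and most other isoforms lie above 0 (median 1.94). The reference and the other sarcomere genes share some genes, among them Myh6.

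Of 6 genes known from the infarct border zone, 3 were called higher in the collagen-richest spots, where 36.1% of all genes were. These were Nppa (4.32 ± 0.70, adjusted p = 0.00021), Ankrd1 (1.02 ± 0.33, adjusted p = 0.0154) and Acta1, while Nppb (0.88 ± 0.52, adjusted p = 0.144), Xirp2 (0.35 ± 0.22, adjusted p = 0.162) and Flnc (0.16 ± 0.22, adjusted p = 0.529) were not called. The 6 genes together had 2273, 1629, 2692 and 1497 CPM in the collagen-poorest spots on days 1, 4, 7 and 14. In rank group 3 they had 12239, 22188, 11979 and 2160, and in the collagen-richest 15372, 15308, 7182 and 4489. On day 7, the skeletal actin Acta1 alone had 4808 CPM in rank group 3, which held 76 of the 119 skeletal muscle spots. The part of those spots in the day 7 sum was not tested. The day 4 section, where Tpm1 and Mybpc3 had their highest level in rank group 3, also had the highest sum of this list there. The genes of the list differed in this. Nppa also belongs to a list of atrial genes with Myl4, Myl7, Sln and Mybphl. That list summed to 16168 CPM in rank group 3 on day 4, where Myl4 and Myl7 had 4.07 and 0.873. On days 1, 7 and 14 it summed to 1740, 2747 and 54.9. Acta1 had 1627 CPM in rank group 3 on day 4, against 3252, 4808 and 761 on days 1, 7 and 14. The part of border zone tissue in the levels of the members was not tested.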

How the data were processed

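Frozen sections were placed on Visium slides, per the labels. The deposited values are UMI counts per gene and spot, made by the authors with Space Ranger 1.3.0 on mm10 for spots under tissue, with no normalization (Seurat 4.1.1 is also named in the submitters' processing notes). Spots with over 1% of UMIs in 8 hemoglobin genes were removed here, the limit being that of the study's methods and the gene set chosen here. Spots were ranked within a section by the share of Col1a1, Col1a2 and Col3a1, and UMIs were summed per section and rank group. Positions and images of spots were not used. edgeR 4.0.16 (R 4.3.3) fitted the 16 libraries with the section as a block, once with TMM and once with the summed UMIs of 16 reference genes as offset, over 4766 genes with at least 1000 UMIs (the 3 ranking collagens left out). Adjusted p-values are from edgeR's quasi-likelihood test with Benjamini-Hochberg adjustment unless DESeq2 is named, the common dispersion was 0.0335 with TMM and 0.154 with the offset, and standard errors are the log2 change divided by the square root of F. The 4 sections differ in day, and the test asks for the mean change over them. Its 9 residual degrees of freedom also draw on the scatter between rank groups of the same section. The SE and p therefore do not measure how the change varies between mice. The plain Myl2 log2 ratios of rank group 4 to group 1 were -0.848, -3.01, -2.18 and -0.413 on days 1, 4, 7 and 14. A call does not show that the change was found on each day, as Tnnc2, called through day 7, shows. The test was tried on simulated counts in which 200 genes changed, at a dispersion below both of those given here. Far more genes were called in the data, so the simulation cannot show how the test performs on them.

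Intervals of a single section are exact and cover counting error only. The members and all gene lists were chosen with earlier results of these data known. Named genes are all members, per list the 3 largest rises and falls among the genes called, and per member the 2 genes of highest Pearson r (log2 of CPM plus 1, section means subtracted). Genes were placed on GRCm38 (the mm10 build) by GENCODE vM21. Alternatives were total UMIs, DESeq2 1.42.0, other limits on genes, hemoglobin, depth and group size, other rankings (with collagen as a share of UMIs from other cells, and with other matrix genes) and references, no section block, skeletal muscle spots left out, random order of ties, each section left out, and, added after seeing the data, spots rich in reference UMIs alone.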

Additional observations from a re-analysis of the deposited data

Results flagged for a closer look

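Among 20 checks (10 members on 2 scales), 3 stood out in the log2 ratio of the collagen-richest to the collagen-poorest spots of single sections. Tpm1 per total UMIs was higher on day 1 (0.211) and lower on day 4 (-0.847), day 7 (-1.25) and day 14 (-0.248). Myl3 per reference UMI was higher on day 1 (0.103) and lower on day 4 (-0.616) and day 7 (-0.271). In both cases the counting intervals of the sections lay on opposite sides of no change, and the difference between days was not tested, since there is 1 mouse per day. Mybpc3 per total UMIs was at -1.03 on day 7, far from the other 3 days, by a rule that flags about 1 in 20 groups of 4 by chance.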

How the results depend on the processing

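Of the values recomputed for single members under alternatives, 346 kept their direction and side of the threshold, 32 kept the direction but lost the call, 1 gained a call and 1 changed sign. The count of members lower in the collagen-richest spots was 10, and 8 to 10 under all alternatives (8 with total UMIs and 8 in spots rich in reference UMIs, where 7 of 419 such spots were left on day 4 and 45 of 462 on day 7). Of all genes, 1643 of 4766 were called lower in the main fit and 808 of 4766 with total UMIs. In spots rich in reference UMIs, 914 of 3823 were. Leaving out each section gave 9 to 10 members. In rank group 3 the count was 0, and 1 with total UMIs, DESeq2, no hemoglobin filter, its limit halved or ranking by Fn1, Sparc, Bgn and Postn, 3 in spots rich in reference UMIs, and 0 to 1 with a section left out. In rank group 2 it was 0 throughout. The count above the reference was 5, and 3 with genes of at least 10 UMIs, no section block, the top and bottom 10 percent of spots or the contractile reference, and 3 to 5 with a section left out (3 without day 1 and 3 without day 4). Of all genes, 4311 of 4766 were above it in the main fit and 12623 of 15059 with genes of at least 10 UMIs. With no section block 4248 of 4766 were, with the top and bottom 10 percent 4350, and with the contractile reference 4155. The count below the reference was 3, and 1 with genes of at least 10 UMIs or the energy reference, 0 with the top and bottom 10 percent, and 2 to 3 with a section left out. Of all genes, 27 of 4766 were below it in the main fit and 21 of 15059 with genes of at least 10 UMIs. With the energy reference 5 of 4766 were, and with the top and bottom 10 percent 3. Mylk3 per reference UMI, not called at 0.21, was -0.0237 with the contractile reference. The cause of these shifts was not tested. Rank groups were compared within the same section, which the section block treats as pairs. Days could not be paired, since each has a single section from a different mouse. Depth limits Mylk4, whose collagen-richest values rest on 12 to 56 UMIs.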
